A study of Homo sapiens with 4 samples.

Results

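The mitochondrial ribosomal protein genes are the nuclear genes named MRPL or MRPS followed by a number, which encode proteins of the ribosome that works inside mitochondria. They were taken from the GENCODE v44 annotation of the GRCh38 genome as the protein-coding genes with such a symbol, and 78 of 20046 protein-coding genes met this rule. Of these, 49 carried a large-subunit symbol (MRPL) and 29 a small-subunit symbol (MRPS). A poly(A) site cluster (PAC) with its dominant site in the gene's own span and strand was listed for 74 of the 78, compared with 10841 of all 20046 protein-coding genes, and these 74 genes held 107 of the 17627 PACs of the series.

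The data were PAS-seq libraries, in which each sequenced tag marks the 3′ end of a polyadenylated transcript, from 2 human esophageal squamous cell carcinoma (ESCC) lines, KYSE30 and TE-1. Each line was grown with l-lactate, at 20 mM for 24 h by the methods of the study, or with phosphate-buffered saline as control, and each of these 4 groups was 1 library. No spread between replicates could be measured, so no difference was tested: values are set side by side, and every interval given is a 95% interval for counting error only. The cell line field of the control samples reads KYSE32 and TE-3 while their titles read KYSE30 and TE-1. The titles were used. SOX2 stood at 168 TPM in the control titled KYSE30 and 220 TPM with l-lactate, while it was listed in neither library titled TE-1. This sets each control beside its l-lactate library, but cannot decide between the titles and the cell line field.

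The libraries held 7174991 to 10393799 tags, and TPM here means tags per 1000000 tags of the library. A tag stands for 1 transcript end, so the values carry no correction for gene length. Of 11 marker genes for such lines (keratins, other epithelial and squamous genes, and the mesenchymal gene VIM), 7 were listed in their spans in at least 1 library, with summed levels of 1359 to 3622 TPM. TP63 and VIM had a PAC only within 500 nt after their ends, and the basal keratins KRT5 and KRT14 were not listed. The lines differed in these markers: SOX2 and KRT6A were listed in KYSE30 alone and KRT17 in TE-1 alone, and CDH1, the epithelial cadherin, stood at 228 and 204 TPM in KYSE30 with and without l-lactate but at 1.30 TPM with l-lactate in TE-1 and not listed in its control. Of 7 markers of blood, fibroblast and endothelial cells, only COL1A1 was listed, in TE-1, and the list summed to between 0 and 5.39 TPM.

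The mitochondrial ribosome translates the few mRNAs of the mitochondrial genome, all of which encode core subunits of the respiratory chain and ATP synthase. Its ribosomal RNAs come from mitochondrial DNA, whereas every one of its proteins is made in the cytosol from a nuclear gene and imported, so the assembly of 1 ribosome draws on genes spread over many chromosomes. Where such an mRNA ends is set by cleavage a short way after a poly(A) signal, most often AAUAAA or its variant AUUAAA. Genes with several such signals can end their mRNAs at a proximal (pPAS) or a distal (dPAS) site, which is alternative polyadenylation (APA), and the factor NUDT21 binds UGUA upstream of sites it promotes.

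The DNA just before 12 dominant sites is printed first, since the results below turn on these sites. Each run is the 30 nt of GRCh38 that ends at the dominant site, 5′ to 3′ on the strand of the gene, with 1 hexamer in capitals: AATAAA where the run holds it, otherwise ATTAAA, otherwise another known variant, even where a rarer variant lies nearer the site. The sites of MRPL43 are shown because the lines used them in different proportions, and those of MRPS36 because its distal PAC is described below under l-lactate. MRPL51 and MRPS15 had the highest levels within the gene spans, MRPS17, MRPL17, MRPL36 and MRPL39 were past 2-fold between the lines in both treatments, and MRPL50 and MRPL54 were past 1.5-fold with l-lactate in KYSE30.
MRPL43 proximal site, chr10:100986276-100986305, minus strand: aaaacaggttAATAAActtatccaaggtca
MRPL43 second site, chr10:100981376-100981405, minus strand: tttgggcAGTAAAtgtttgttgagcactta
MRPS36 proximal site, chr5:69229431-69229460, plus strand: actttatacttATTAAAgtatacattttta
MRPS36 distal site, chr5:69230128-69230157, plus strand: aagctaAATAAAttctcttccataccttta
MRPL51 site, chr12:6492151-6492180, minus strand: ttctctgtAATAAAatggggcttctttgga
MRPS15 site, chr1:36455774-36455803, minus strand: caaagacagccAATAAAttctgttcaatca
MRPS17 site, chr7:55955308-55955337, plus strand: atgaAGTAAAgggcatactatggtttttca
MRPL17 site, chr11:6681937-6681966, minus strand: tttgcacaataGATAAAagtctttatatga
MRPL36 site, chr5:1798388-1798417, minus strand: aacattttcctATTAAAatagaccttccga
MRPL39 site, chr21:25585663-25585692, minus strand: ttaaatatgtataataaAATAAAtgtttta
MRPL50 proximal site, chr9:101389966-101389995, minus strand: tttagaATTAAAgtagatttgttaaagtgt
MRPL54 site, chr19:3767536-3767565, plus strand: gccAATAAAgagctttctgggtagacccta

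The canonical hexamer stands in both MRPL51 and MRPS15, with its last base 15 and 12 nt before the dominant site. Of the line-different genes, MRPL39 carries AAUAAA, MRPL36 AUUAAA, MRPL17 the variant GAUAAA and MRPS17 the variant AGUAAA. The proximal MRPL43 site follows AAUAAA and its second site follows AGUAAA, whereas in MRPS36 the proximal site follows AUUAAA and the distal site AAUAAA. Over all member PACs, AAUAAA lay in the 50 nt before the dominant site in 68 of 107 (63.6%, Wilson interval 54.1 to 72.1%), and in 66.7% of the PACs of all protein-coding genes. AUUAAA without AAUAAA accounted for another 16.8% of member PACs, against 16.7% of all, and 3.74% of member PACs held no known hexamer, against 3.75% of all. UGUA, read on the transcript strand in the 100 nt before the site, stood before 52.3% of member PACs and 56.1% of all. These shares were close to those of the other genes. A hexamer match here describes the letters of the window and is no measurement of cleavage.

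Member mRNAs ended close to the stop codon. The spliced 3′ UTR up to the leading site had a median of 237 nt over the 70 members whose leading PAC lay in a 3′ UTR, against 818 nt over 9845 protein-coding genes. It was under 200 nt in 30 of the 70 members (42.9%) and in 13.4% of all genes. Cytosolic ribosomal protein genes were shorter still, with a median of 55 nt over 73 genes, and nuclear genes for subunits of oxidative phosphorylation (OXPHOS) stood at 145 nt over 73 genes. The shortest member 3′ UTR was that of MRPS15, at 14 nt. These lengths rest on the annotation and on 1 leading site per gene, and were not tested.

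Most members had a single PAC. A PAC number of 1 was found in 55 of 74 members and 2 or more in 19 (25.7%), with at most 5, in MRPL19 and MRPL42, while 35.0% of all listed protein-coding genes had 2 or more. The number scarcely moved between libraries: 104 member PACs were listed in KYSE30 with l-lactate and 102 in its control, 107 in TE-1 with l-lactate and 106 in its control. The PACs lay in a 3′ UTR in 97 of 107 cases, in an intron in 6 and in an exon of a noncoding transcript in 4, and the 3′ UTR PACs held 97.8% of the summed TPM.

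Account was taken of the members with no PAC in their span. MRPL23 had none within 5 kb after its end either. MRPL24, MRPL38 and MRPS24 each had a PAC whose dominant site lay 1 nt past the annotated end of the gene, and MRPL3 had its main PAC at the same offset while its span held only a minor intronic one. With spans extended by 500 nt, 77 of 78 members had a PAC. Over all protein-coding genes 307 gained one, of which 3 were members. On that reading MRPS24 stood at 354 TPM in KYSE30 with l-lactate and 326 TPM in its control, and at 439 and 437 TPM in TE-1. MRPL24 stood at 101 and 107 TPM in KYSE30 and at 166 and 163 TPM in TE-1, and MRPL38 at 36.2 and 34.2 TPM and then 26.0 and 24.7 TPM, in the same order. MRPL3, which encodes the mitochondrial form of a core protein near the catalytic centre of the large subunit, stood at 179 and 149 TPM in KYSE30 and at 437 and 421 TPM in TE-1. These are 4 well-listed genes that the plain span rule misses or nearly misses, and their values are given again where a result turns on them.

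The median over members of the median TPM in the 4 libraries was 96.9, with quartiles of 48.2 and 132, compared with 24.4 over all listed protein-coding genes, 258 over 75 OXPHOS genes and 2183 over 78 cytosolic ribosomal protein genes. Of the 74 members, 9 lay below the median of all listed genes. MRPL51, a large-subunit protein, had the highest level within the gene spans, at 817 and 785 TPM in KYSE30 with and without l-lactate and 827 and 869 TPM in TE-1. MRPS15, the mitochondrial form of a small-subunit protein also found in bacteria, followed at 434, 407, 274 and 291 TPM in the same order. All 4 MRPL51 values were above every value of every other member, in extended spans too. MRPS24, by its PAC 1 nt past the gene end, would stand between MRPL51 and MRPS15 by its median of 395 TPM against 349 TPM for MRPS15, although their ranges overlap.
The next 3 genes were MRPS16 (241 to 340 TPM), MRPL11 (265 to 322 TPM), which belongs to the base of the stalk where translation factors dock, and MRPL20 (265 to 299 TPM). Their ranges overlap, so their order is not set by these libraries. At the other end, MRPL32, a large-subunit protein matured by the m-AAA protease, stood at 6.73 to 10.6 TPM, MRPL54 at 5.57 to 11.2 TPM and MRPS31 at 5.48 to 11.6 TPM. MRPL2 was lower, at 2.13 to 4.71 TPM. MRPL3 was last by the span rule, with 6.97 and 4.71 TPM in TE-1 and none in KYSE30, yet by its main PAC it would rank among the highest members.

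The summed TPM of the members was 8216 in KYSE30 with l-lactate and 7750 in its control, and 8617 in TE-1 with l-lactate and 8864 in its control. The l-lactate libraries thus stood 6.01% above control in KYSE30 (log2 ratio 0.08, interval 0.07 to 0.10) and 2.79% below control in TE-1 (log2 ratio −0.04, interval −0.05 to −0.03). Both differences were small and they had opposite signs. Large-subunit genes summed to 4767 and 4541 TPM in KYSE30 and to 5200 and 5463 TPM in TE-1. Small-subunit genes summed to 3449 and 3209 TPM in KYSE30 and to 3417 and 3401 TPM in TE-1. Grouping here is by symbol, although the proteins of MRPS30 and MRPS18A sit in the large subunit of the assembled ribosome.

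Few members differed by 1.5-fold with l-lactate on the log2(TPM + 1) scale, which was the fold used to call a difference. In KYSE30, 1 of 72 members with at least 5 TPM in either library was called higher (MRPL50) and 1 was called lower (MRPL54), while 2.11% and 1.85% of all protein-coding genes tested were called higher and lower. In TE-1, 0 of 73 members were called in either direction, against 2.38% of all genes higher and 1.26% lower. The members' counts were near these backgrounds, and no member was called in both lines. With only genes of 20 TPM or more kept, 1 of 66 members and 1.04% of 6049 genes were past the fold in KYSE30, and 0 of 65 members and 1.04% of 6036 genes in TE-1.

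MRPL50 encodes a large-subunit protein with no bacterial counterpart. Its level was 42.4 TPM with l-lactate (304 tags) and 27.6 TPM in control (205 tags) in KYSE30, and 34.7 and 31.9 TPM in TE-1. The KYSE30 ratio was 1.52-fold (log2 0.60, interval 0.36 to 0.88), only just past the fold used, and the TE-1 log2 ratio was 0.12 (interval −0.11 to 0.35). MRPL54, likewise of the large subunit, stood at 5.57 TPM (40 tags) with l-lactate and 10.1 TPM (75 tags) in control in KYSE30, and at 9.09 and 11.2 TPM in TE-1. Its log2 ratios were −0.76 (interval −1.45 to −0.29) and −0.27 (interval −0.73 to 0.13). The intervals are those of the tag rates without the added 1, so they need not centre on the log2 ratio of a gene this low. Both lines placed MRPL50 higher and MRPL54 lower with l-lactate, but in TE-1 the counting interval held 0 for each gene.

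Of members with at least 5 TPM in every library, the highest mean log2 ratios over the lines were those of MRPL4 (0.37), MRPL50 (0.36), MRPL42 (0.35), MRPL32 (0.28), MRPL1 (0.25), MRPL19 (0.25), MRPS6 (0.23) and MRPS10 (0.18). MRPL4 stood at 58.5 and 47.4 TPM with and without l-lactate in KYSE30 and at 48.5 and 35.7 TPM in TE-1. Its intervals left out 0 in both lines (0.10 to 0.51 and 0.24 to 0.65), as did those of MRPL19 (0.14 to 0.46 and 0.06 to 0.33) and MRPS6 (0.21 to 0.45 and 0.04 to 0.21). MRPS10, by contrast, was higher in KYSE30 alone, at 91.6 and 69.0 TPM, with 65.3 and 67.1 TPM in TE-1. All of these genes were picked by the same ratios, so an interval that leaves out 0 is no separate support for a difference.
The lowest mean log2 ratios were those of MRPL54 (−0.51), MRPL41 (−0.26), MRPL57 (−0.25), MRPS21 (−0.22), MRPS33 (−0.16), MRPL37 (−0.14), MRPL30 (−0.12) and MRPS25 (−0.11). MRPS21, a small-subunit protein with a bacterial counterpart, was the one of these 8 whose interval lay below 0 in both lines (−0.23 to −0.02 and −0.42 to −0.22), at 199 and 217 TPM in KYSE30 and 162 and 203 TPM in TE-1. MRPL57 stood at 145 and 146 TPM in KYSE30 and at 78.5 and 110 TPM in TE-1, so its lower mean came from TE-1. These 8 genes too were picked by the same ratios, and their intervals are no separate support.

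Over the 72 members tested in both lines, 22 were higher with l-lactate in both, 13 lower in both and 37 moved in opposite directions, which makes 48.6% of the same sign against 56.0% of 8077 protein-coding genes. Spearman's rho of the log2 ratios between the lines was 0.32 across members (Pearson's r 0.29), and 0.19 across all genes. The points share the library and its depth within each line, and genes are no independent replicates. In KYSE30 the members' median log2 ratio was 0.07 against 0.01 over all genes, with 55 of 72 members and 51.9% of all genes above 0, and in TE-1 it was −0.04 against 0.04, with 27 of 73 members and 57.4% of all genes above 0. OXPHOS genes showed medians of 0.03 and −0.07 and cytosolic ribosomal protein genes −0.02 and −0.09 in KYSE30 and TE-1.

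Between the lines a 2-fold difference on the same scale was used as the call, and a smaller share of members than of all genes was past it. In the control libraries 1 of 72 members was called higher in KYSE30 (MRPS17) and 5 were called lower (MRPL17, MRPL30, MRPL36, MRPL39 and MRPL48), against 19.7% and 16.8% of all protein-coding genes. In the l-lactate libraries 1 of 73 members was called higher (MRPS17) and 5 were called lower (MRPL17, MRPL3, MRPL36, MRPL39 and MRPS25), against 18.3% and 16.8%. Each count of members lay below its background. At 20 TPM or more the gap stayed, with 6 of 65 members (9.23%) against 32.7% of 6808 genes in control and 5 of 66 (7.58%) against 31.3% of 6817 genes with l-lactate. The quartile range of the log2 ratios was 0.69 over those members and 1.28 over those genes in control, and 0.64 and 1.24 with l-lactate. Such low counts were not particular to the members. Of 77 cytosolic ribosomal protein genes, 1 was called higher in KYSE30 and 1 lower in control, and 2 and 2 of 76 with l-lactate. Of 75 OXPHOS genes, 4 were called higher and 4 lower in control, and 5 and 3 with l-lactate. No test was made of these gaps.

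The members' summed TPM was 12.6% lower in KYSE30 than in TE-1 in control (log2 −0.19, interval −0.21 to −0.18) and 4.66% lower with l-lactate (log2 −0.07, interval −0.08 to −0.05). Members' median log2 ratios were −0.17 and −0.09, and those of all genes 0.02 and −0.01. Of members tested, 26 of 72 and 30 of 73 stood higher in KYSE30, against 51.0% and 49.5% of all genes.

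MRPS17, the mitochondrial form of a conserved small-subunit protein that binds ribosomal RNA, was the one member called higher in KYSE30. It stood at 389 and 332 TPM with and without l-lactate in KYSE30 and at 110 and 113 TPM in TE-1. Both KYSE30 values were more than those of TE-1 by 2.91-fold in control (log2 1.54, interval 1.45 to 1.65) and 3.51-fold with l-lactate (log2 1.81, interval 1.71 to 1.93). MRPS17 lies at chr7:55951877-55956500 within the span of NIPSNAP2 on the same strand, so a tag at its site is placed in both genes. A further PAC 1 nt past the end of MRPS17 held 68.0 and 54.4 TPM in KYSE30 and 12.3 and 11.1 TPM in TE-1. Genes within 1 Mb of MRPS17 were also higher in KYSE30, with a median log2 ratio of 2.26 over 7 genes in control and 2.15 over 8 with l-lactate.

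MRPL17, MRPL36 and MRPL39 were called lower in KYSE30 for both treatments. MRPL17, the mitochondrial form of a bacterial large-subunit protein, stood at 91.3 and 96.8 TPM in KYSE30 with and without l-lactate and at 286 and 302 TPM in TE-1. It was 3.10-fold lower in control (log2 −1.63, interval −1.76 to −1.53) and 3.11-fold lower with l-lactate (log2 −1.64, interval −1.78 to −1.52). MRPL36, a very small large-subunit protein with a bacterial counterpart, stood at 64.5 and 61.3 TPM in KYSE30 and at 177 and 202 TPM in TE-1, with log2 ratios of −1.70 in control (interval −1.87 to −1.57) and −1.44 with l-lactate (interval −1.61 to −1.30). MRPL39, a large-subunit protein without a bacterial counterpart, stood at 41.7 and 33.7 TPM in KYSE30 and at 96.5 and 104 TPM in TE-1, with log2 ratios of −1.60 (interval −1.84 to −1.43) and −1.19 (interval −1.41 to −1.02). In none of these genes did the lines overlap.
MRPL3, summed over its PACs in the extended span, was likewise lower in KYSE30: it was 2.82-fold lower in control (log2 −1.49, interval −1.60 to −1.40) and 2.43-fold lower with l-lactate (log2 −1.28, interval −1.38 to −1.20). With extended spans 6 of 76 members were called lower in KYSE30 in control and 5 of 76 with l-lactate.

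MRPL30 and MRPL48 were past 2-fold in control only, with log2 ratios of −1.25 (interval −1.41 to −1.12) and −1.13 (interval −1.35 to −0.96). Their ratios with l-lactate were −0.86 and −0.78, on the same side and short of the fold. MRPS25, a small-subunit protein linked to mitochondrial disease in humans, was past 2-fold with l-lactate (log2 −1.05, interval −1.34 to −0.83) and just short of it in control (log2 −0.95, interval −1.22 to −0.75). The l-lactate call of MRPS25 rests on a row of the KYSE30 file that lists 11 tags for its intronic PAC and 21 at that PAC's dominant site, and with the 21 tags its log2 ratio was −0.97 (interval −1.25 to −0.75), short of the fold. MRPS5 and MRPS27 lay at the edge in control, with log2 ratios of −0.997 and −0.996. Whether the treatment changed any of these line differences was not tested.

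Genes around a member often leaned the same way. Within 1 Mb, 12 neighbours of MRPL17 on chromosome 11 had a median log2 ratio of −1.27 in control and −1.37 with l-lactate, and 9 neighbours of MRPL36 on chromosome 5 had −1.81 and −1.91. For MRPL39 on chromosome 21, 3 neighbours gave −0.05 and −0.74. For the 15 neighbours of MRPL48 the medians were −0.58 and −0.54, for the 10 of MRPL30 they were −0.20 and −0.46, and for the 14 of MRPS25 they were −0.46 and −0.38. Over the 71 members with at least 3 neighbours, Spearman's rho between a member's log2 ratio and the median of its neighbours was 0.43 in control (Pearson's r 0.49), and 0.37 with l-lactate (Pearson's r 0.48). Without MRPL3, whose span holds only a minor PAC, it was 0.39 (Pearson's r 0.56) over 70 with l-lactate. Over all genes rho was 0.34 in control (Pearson's r 0.25, 9140 genes) and 0.36 with l-lactate (Pearson's r 0.27, 9190 genes). Neighbouring genes share windows, so the points are not independent, and what the neighbourhoods have to do with the members' levels was not tested.

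Other genes of mitochondrial translation were read from lists of their known genes. The 5 mitoribosomal proteins with other symbols (PTCD3, DAP3, CHCHD1, AURKAIP1 and GADD45GIP1) had none past a fold in any comparison. With l-lactate, 4 of the 5 had a log2 ratio above 0 in KYSE30 and 1 in TE-1, against 51.9% and 57.4% of all genes. The median log2 ratios of the 5 were 0.04 and −0.12. The 1 in TE-1 was DAP3, a small-subunit GTP-binding protein also known from cell death, at log2 0.21 in KYSE30 and 0.23 in TE-1. Of 13 translation factors tested, 0 were called in KYSE30 with l-lactate and 1 in TE-1 (MTRF1, higher, at 6.02 and 2.60 TPM). In KYSE30 MTRF1 was lower with l-lactate, at 8.78 and 12.4 TPM. Of 24 and 25 assembly and rRNA-modifying factors, 0 were called in either line. Of 15 and 14 mitochondrial aminoacyl-tRNA synthetases, 1 was called in KYSE30 (EARS2, higher, at 5.85 and 1.62 TPM) and 0 in TE-1. The shares of all genes called were 2.11% higher and 1.85% lower in KYSE30, and 2.38% and 1.26% in TE-1.
Between the lines, 1 factor was called higher in KYSE30 and 3 lower of 13 in control, and 0 and 2 with l-lactate. Of 25 assembly factors 1 was higher and 3 lower in control, and 2 and 2 with l-lactate. Of 14 synthetases 3 were higher and 3 lower in control, as were 3 and 3 of 15 with l-lactate. Beside these counts, 19.7% of all genes were called higher and 16.8% lower in control, and 18.3% and 16.8% with l-lactate. GFM1, the elongation factor that moves the ribosome along the mRNA, and OXA1L, which inserts new proteins into the inner membrane, were lower in KYSE30 for both treatments. GFM1 stood at 48.8 and 41.9 TPM in KYSE30 and at 126 and 101 TPM in TE-1, and OXA1L at 89.1 and 84.2 TPM against 202 and 212 TPM. Of the assembly factors, the pseudouridine synthase RPUSD4 (log2 −1.88 in control and −1.78 with l-lactate) and the rRNA methyltransferase MRM1 (−1.56 and −1.19) were lower and the GTPase MTG1 (1.21 and 1.42) was higher. Of the synthetases, CARS2 (−2.81 and −2.78), NARS2 (−1.34 and −1.20) and LARS2 (−1.20 and −1.24) were lower, and PARS2 (1.55 and 1.32) and RARS2 (1.15 and 1.27) were higher.

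Distal usage, the share of a gene's tags in its most distal PAC, was compared for genes with at least 2 PACs of 5 TPM or more in either library, and a difference of 10 percentage points was the call. With l-lactate 0 of 14 members were called in KYSE30 and 0 of 17 in TE-1, against 10.1% and 11.2% of all genes tested. Between the lines 3 of 15 members were called in control (MRPL19, MRPL42 and MRPL43) and 3 of 17 with l-lactate (MRPL19, MRPL43 and MRPS25), against 35.4% and 34.8% of all genes. MRPS25 stays past 10 points with l-lactate when its PAC takes the 21 tags described below.

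MRPL43, a large-subunit protein with no bacterial counterpart, had the largest of these differences. Its proximal PAC held 106 and 102 TPM in KYSE30 with and without l-lactate and 70.5 and 73.7 TPM in TE-1. Its second PAC, 4900 nt downstream, held 6.41 and 6.60 TPM in KYSE30 and 79.2 and 90.3 TPM in TE-1. Of the tags in these 2 PACs, the second one thus took 5.73% (interval 4.32 to 7.56%) and 6.08% (4.63 to 7.95%) in KYSE30 against 52.9% (50.2 to 55.7%) and 55.1% (52.7 to 57.4%) in TE-1. Both KYSE30 libraries were low, both TE-1 libraries were high, and l-lactate left each line where its control was, within counting error.
The sites belong to different annotated transcripts. Transcripts that end within 10 nt of the proximal site have stop codons upstream of those that end at the second site and encode 44 to 164 residues, while the latter encode 168 to 235 residues, so the site used goes with the carboxy-terminal end of the protein as annotated. The second site also lies in the span of a same-strand gene known only by an identifier. A further PAC downstream, under the 5 TPM asked of a PAC, held 1.67 to 2.98 TPM, which was 1.47 to 1.79% of the gene's tags in the 4 libraries. Where PACs of 1 TPM are kept, that PAC is the most distal one and MRPL43 is not called in either treatment, so the difference described is between its first and second sites.

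MRPL19 ends at 5 PACs spread over a long 3′ UTR, and of the tags in its 3 larger PACs the most distal one held 44.1% and 46.2% in KYSE30 with and without l-lactate and 27.9% and 26.7% in TE-1. The intervals of the lines were apart in both treatments, with KYSE30 at 40.3 to 47.9% and 42.0 to 50.4%, and TE-1 at 24.9 to 31.1% and 23.8 to 29.7%. That PAC shares its place with another same-strand gene. MRPL42, a protein of the large subunit, was called in control alone. Its distal PAC here is PAC 2 of 5, since PACs 3 to 5 stayed under 5 TPM, and that PAC held 73.9% in KYSE30 and 56.4% in TE-1, while the l-lactate libraries stood at 64.5% and 61.6% with overlapping intervals. In MRPS25 the most distal PAC was intronic, and it held 17.3% of the gene's tags in the KYSE30 control, and 27.2% and 19.0% with and without l-lactate in TE-1. For KYSE30 with l-lactate the file lists 11 tags in this PAC but 21 at its dominant site, so that its share is listed as 6.11% and is at least 11.1% (interval 7.34 to 16.3%) by the tags of the site. MRPS25 was not among the 14 members compared in KYSE30 with l-lactate, as this PAC was under 5 TPM there, and no direction is read from its share.

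The distal PAC of MRPS36 was singled out after its values were seen, and its difference with l-lactate is under the 10 points used as the call. This PAC, 697 nt after the proximal one, was listed with 45 tags with l-lactate and 15 in control in KYSE30, and with 44 and 15 tags in TE-1. Its dominant site was listed with 25 and 19 tags in KYSE30 and 26 and 25 in TE-1. In both controls the site thus holds more tags than the whole PAC, and which of these values is wrong cannot be told. With the tags of the site taken in place of the control totals, the KYSE30 share was 7.08% (interval 5.33 to 9.34%) with l-lactate. It was then at least 3.05% (1.96 to 4.72%) in control. In TE-1 the shares were 5.61% (4.21 to 7.45%) and at least 2.66% (1.81 to 3.89%). The 26 and 25 tags of the site in TE-1 come from libraries of unequal depth, 8468958 tags with l-lactate and 10393799 in control. They are therefore not compared as tags. By the tags of the site the control shares are lower limits, so no difference is read from this PAC. Rows of this kind were 70 of 59784 in all and 3 of 419 among the members, the other member row being that of MRPS25. By the listed tags, 1 of 14 members compared in both lines (MRPS36) had a distal share higher with l-lactate in both with intervals apart and 0 had the opposite, against 2.47% and 3.54% of 1580 protein-coding genes. The distal PAC of MRPS36 reached the 5 TPM minimum only with l-lactate, at 6.272 against 2.02 TPM in KYSE30 and 5.195 against 1.443 TPM in TE-1. It thus entered this count through the libraries where it was high, and no result is drawn from the count. The proximal PAC of MRPS36 stood at 82.4 and 81.2 TPM in KYSE30 and at 87.4 and 88.1 TPM in TE-1. UGUA stands in the 100 nt before the proximal site and is absent from that window before the distal site. A stretch on another chromosome matches the 100 nt before the proximal site at 97% identity, and no PAC was listed there. MRPS36 was named as a ribosomal protein but has since been assigned to the 2-oxoglutarate dehydrogenase complex.

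In MRPS10 the distal PAC held 71.7% (interval 68.1 to 75.0%) with l-lactate and 80.3% (76.6 to 83.5%) in control in KYSE30, as the proximal PAC stood at 25.9 and 13.6 TPM. In TE-1 the distal share was 74.9% and 75.6%. In MRPS16, the distal share was 35.1% and 36.2% in KYSE30 and 31.2% and 27.6% in TE-1.

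**Figure D1:**
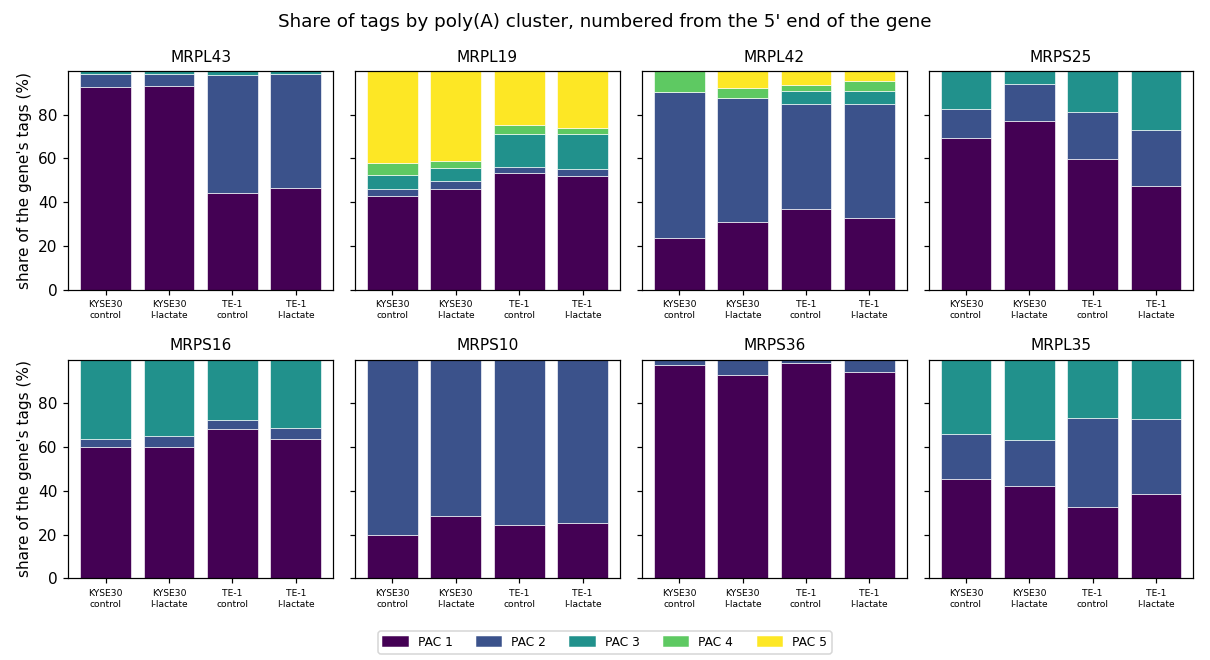
Share of each gene's tags (percent) in each of its PACs, numbered from the 5′ end of the gene, in the 4 libraries for 8 members with 2 or more PACs. MRPL43 shows the largest difference, with PAC 2 at 5.64 to 5.98% of tags in KYSE30 and 52.1 to 54.1% in TE-1.

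Within a PAC, the dominant site was usually the same base in all libraries. With l-lactate it stayed at the same position in 79 of 87 member PACs of at least 5 TPM in KYSE30 and in 87 of 91 in TE-1. The dominant site thus moved by any distance in 8 of 87 and 4 of 91, against 5.11% and 4.53% of all PACs tested. Between the lines the dominant site moved in 7 of 86 in control and 11 of 90 with l-lactate, against 6.21% and 6.39%. In KYSE30 it lay more than 24 nt downstream with l-lactate in 2 of 87 (MRPL42 and MRPL57) and upstream in 1 (MRPL32), against 0.792% and 0.671% of all PACs tested. In TE-1 it lay downstream in 1 of 91 (MRPS23) and upstream in 0, against 0.734% and 0.513%. In KYSE30 relative to TE-1 it lay downstream in 0 of 86 and upstream in 2 in control (MRPL42 and MRPS18A), against 1.29% and 0.815%. With l-lactate it lay downstream in 1 of 90 (MRPL57) and upstream in 3 (MRPL32, MRPS18A and MRPS23), against 1.2% and 0.835%.
In MRPL57 the dominant site lay 156 nt further downstream with l-lactate in KYSE30, where it held 48.5% of the PAC's tags, and the dominant site of the control held 48.3% of the tags there. In MRPS23 the site with l-lactate in TE-1 was 66 nt from that of its control, with 32.8% of the tags in the first library and 33.1% in the second at its own dominant site. The files list no tags for the other site in either library. MRPS18A used a site 147 nt upstream in KYSE30 relative to TE-1 in both treatments, with 34.2 to 38.8% of the tags. In MRPL42 the shift was 409 nt, on 57 tags of the KYSE30 control PAC. In MRPL32 the dominant site was 91 nt upstream with l-lactate in KYSE30, where it held 38.0% (interval 27.6 to 49.7%) of 71 tags, while the site of the control held 78.0% (64.8 to 87.2%) of 50 tags.

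The leading PAC of 10 members lies in the span of a second gene on the same strand, and for these the tags cannot be split. They are MRPS17 (NIPSNAP2), MRPL53 (CCDC142), MRPL28 (PGAP6), and MRPL2, MRPL12, MRPL30, MRPS5, MRPS6, MRPS25 and MRPS28, whose partner is known only by an identifier. In MRPL28 the leading PAC was intronic and lay in PGAP6, at 28.3 and 26.5 TPM in KYSE30 and 30.4 and 28.5 TPM in TE-1, whereas the PAC in its own 3′ UTR held 7.94, 9.16, 6.61 and 6.45 TPM. In MRPS6, which overlaps SLC5A3, an intronic PAC took 14.4 to 15.7% of the tags. MRPL33 led with an intronic PAC and MRPL46 with one in an exon of a noncoding transcript. Near-identical copies were searched for with the 100 nt before each of the 107 sites, and 16 members had a match elsewhere of at least 90 nt at 90% identity or more. At 97% or more these were MRPL30, MRPS18C and MRPS36, and no PAC was listed at any of the copies.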

How the data were processed

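PAS-seq was done on 4 libraries, and the deposited tables list, per library, each PAC with its position, its dominant site and their tags per 1000000 library tags (RPM, headed TPM by the authors). Per the study's methods, the authors trimmed reads with FASTX-Toolkit, aligned them with HISAT2 to GRCh38 (p14 in the submitters' processing notes), called sites with CAGEr, dropped low sites and joined near ones. Library totals were recovered here from the TPM steps, and every value came within 0.05 of a whole tag; the lowest value listed was 8 to 11 tags, so a PAC not listed may lie below that.

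PACs listed with the same chromosome, start, end and strand were joined across libraries. Each was set to a gene where the dominant site lay in its GENCODE v44 span in at least 1 library. Member values are sums over these PACs. Ratios used log2(TPM + 1) and genes of at least 5 TPM. Shares have Wilson intervals and ratios conditional binomial intervals, and no p-value was computed. The interval of a ratio is that of the tag rates, without the added 1. The genes named were the 5 highest and lowest by level, those past a fold in 2 comparisons, the 8 highest and lowest mean l-lactate ratios, and those with a called distal share or moved site, no PAC, or a shared or non-3′ UTR leading PAC. Members and lists were chosen with earlier results of these data known. In 70 of the 59784 deposited PAC rows more tags are listed at the dominant site than in the PAC; reported values use the PAC as listed. Scripts were tested on simulated data. Python 3.11.15, pandas 2.3.3, SciPy 1.17.1 and pysam 0.24.0 were used. The alternatives tried are given in the closing section.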

Additional observations from a re-analysis of the deposited data

Results flagged for a closer look

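The summed TPM of the members differed between l-lactate and control with opposite signs in the lines, at a log2 ratio of 0.084 in KYSE30 and −0.041 in TE-1. This difference between the lines was not tested, and with 1 library per group no spread between replicates bears on it. Signal outside the gene spans was flagged for 4 members whose spans held no PAC or only a minor one. It lay in each at a PAC 1 nt past the annotated end. Its highest level over the libraries was 430 TPM for MRPL3, 166 TPM for MRPL24, 36.2 TPM for MRPL38 and 439 TPM for MRPS24. Other members with a PAC in their span had PACs past the end too, among them MRPS17 and MRPS21 at 1 nt.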

How the results depend on the processing

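Of 189 alternative values, 143 kept the reported count within 1.5 times or the reported value within its counting interval, 46 moved and 0 reversed. Shares in brackets are those of all genes under the same setting, higher and lower where both are counted. With l-lactate in KYSE30, a pseudocount of 5 left 0 members higher and 0 lower (1.01%, 0.612%), as did a 2-fold call (0.634%, 0.382%), a minimum of 20 TPM left 0 lower (0.579%), and a call at a 25% difference gave 7 higher (8.44%). In TE-1 the 25% call gave 3 higher and 4 lower (10.7%, 5.26%). Between the lines in control, a 1.5-fold call gave 2 higher and 17 lower in KYSE30 (29.3%, 26.8%), a 4-fold call 0 and 0 (9.27%, 7.8%), and a pseudocount of 0.5 gave 2 higher (20.2%). With l-lactate, a 1.5-fold call gave 4 and 14 (27.5%, 27.2%) and a 4-fold call 0 and 1 (8.96%, 8.17%). Leaving out PACs in a second gene left 0 members higher in KYSE30 in both treatments (19.7% in control, 18.0% with l-lactate), since MRPS17 shares its span, and 3′ UTR PACs alone left 3 lower with l-lactate (16.8%).

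The log2 ratio of summed TPM was −0.081 for TE-1 under median-of-ratios scaling. Between the lines it was −0.24 in control and −0.12 with l-lactate in extended spans, −0.17 and −0.090 as a median of members, and −0.037 with l-lactate under median-of-ratios scaling. Taking each row by its own dominant site, an alternative chosen after seeing the data, gave 1 member higher in TE-1 with l-lactate (2.55%). It gave 2 higher in KYSE30 than in TE-1 in each treatment (19.8% in control, 18.4% with l-lactate). This setting drops rows whose dominant site lies past the gene end. Among them are that of MRPL34 in the TE-1 control, by 1 nt, and those of MRPS10 in both TE-1 libraries, by 6 nt. Raising a PAC to the tags of its dominant site, also chosen after seeing the data, moved no count by over 1.5 times, but left 4 members lower in KYSE30 with l-lactate, without MRPS25.

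For distal usage, 5 points called 2 members in each line with l-lactate (30.3% in KYSE30, 33.8% in TE-1) and 8 between the lines in each treatment (57.9% in control, 57.3% with l-lactate), 20 points called 1 in control (14.5%), and PACs of 1 TPM gave 1 in KYSE30 with l-lactate (MRPS25, 16.3%) and 1 between the lines in control (MRPL19, 37.3%). For dominant sites, any move gave 8 and 4 with l-lactate in KYSE30 and TE-1 (5.11%, 4.53%), and 7 and 11 between the lines in control and l-lactate (6.21%, 6.39%). A move of over 100 nt gave 0 in TE-1 (0.915%) and 2 between the l-lactate libraries (1.46%), and PACs of 10 TPM gave 1 in KYSE30 (1.29%) and 1 between the controls (2.04%). AAUAAA or AUUAAA stood before 80.4% of member PACs, and the 3′ UTR median weighted by TPM was 174 nt. The cause of these changes was not tested unless named. No paired analysis was possible because the groups compared share fewer than 2 replicate numbers. The lines pair l-lactate with control, and that pairing enters as the mean ratio over the lines. Depth limits PACs below 8 to 11 tags, which are not listed.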
